A study of Mus musculus with 5 samples.

Results

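The 48 genes described here encode the secreted Wnt proteins, their Frizzled receptors, the secreted antagonists of the Sfrp and Dkk families, and genes known to be switched on by Wnt signalling. They were taken by gene symbol from 19938 genes measured by a probe set of 1 gene on whole-transcript mouse arrays. The symbol rule uses no measured value, but it was fixed with earlier results of these data known. They comprise 19 Wnt ligands, 10 Frizzled receptors, 4 secreted Frizzled-related proteins (Sfrp1, Sfrp2, Sfrp4 and Sfrp5), 4 Dickkopf proteins (Dkk1 to Dkk4) and 11 targets (Apcdd1, Axin2, Nkd1, Notum, Rnf43, Znrf3, Cdx1, Lef1, Sp5, Lgr5 and Tnfrsf19). Of the names sought, 1 target, Tcf7, had no probe set of its own and was not analysed here.

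The arrays held embryonic stem cells (ESCs), named 2i or S, and embryonic fibroblasts (MEFs). The fibroblasts were a control group, a group named 2n 2i and a group named 4n 2i. Each of the 5 groups had 1 array. All 5 groups shared 1 background, F1 animals of 129X1/SvJ and MSM/Ms, and no genetic change, treatment, age or passage is named for any of them. The term 2i commonly denotes culture with inhibitors of MEK and of the kinase GSK3, but the labels do not list the additives, and S, 2n and 4n are kept here as names. Sample titles carry a number, and 15 stands in both 2i ESCs and 2n 2i MEFs, while each remaining group has its own (S ESCs 36, control MEFs 4, 4n 2i MEFs 2). Most comparisons are therefore also between different title numbers.

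In the canonical Wnt pathway a Wnt protein binds a Frizzled receptor together with the coreceptor Lrp5 or Lrp6, which stops GSK3 and its partners from marking beta-catenin for destruction. Beta-catenin then joins the DNA-binding proteins of the TCF/LEF family and turns on target genes, several of which, such as Axin2, Notum and Znrf3, act back to restrain the pathway. Sfrp proteins bind Wnt proteins outside the cell, and Dkk1, Dkk2 and Dkk4 act on the coreceptors. In mouse ESCs the pathway favours self-renewal, and in mesenchyme it shapes growth and lineage choice.

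Levels are linear intensity values as deposited, and differences are on the log2(intensity + 1) scale. A value counted as above the floor when it reached its array's median over all probe sets that carry a gene name, which lay between 217.9 and 240.1 intensity units. How much of a value under the floor is background is not known, and a fold that uses one is uncertain to that extent. The pluripotency markers fixed as a list were above the floor in 9 of 9 cases on each ESC array and in 0 of 9 on each MEF array, and 12 of 12 fibroblast markers were above it on every MEF array. Deposited values were identical on at least 2 MEF arrays for 20 of the 48 Wnt genes and for 53.8% of all genes, and such an identity is a feature of the deposited table, not a measured equality. Macrophage markers stood apart on the 4n 2i MEF array, where their summed intensity was 13633 units, against 1007 to 1762 on the other arrays.

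Between 21 and 25 of the 48 Wnt genes were above the floor on any 1 array (43.8% to 52.1%), where the floor leaves 49.8% to 50% of all genes. The ligands were the dimmest class. Only 3 of 19 were above the floor on each ESC array, and 6, 4 and 7 on the 2n, 4n and control MEF arrays. Wnt10a (219 units) and Wnt11 (229 units) had identical deposited values on every MEF array. They enter or leave these counts only because the floors differ (225.9, 232.6 and 217.9 units on the 2n, 4n and control arrays). Wnt9a was the ligand above the floor on every array, and 9 ligands were above it on none, among them Wnt1, Wnt3 and Wnt3a, classical activators of beta-catenin. Receptors were more widely present, with 6 of 10 above the floor on each ESC array and 8, 8 and 5 on the 2n, 4n and control MEF arrays. Fzd1 and Fzd7 were above it on all 5 arrays, as were Sfrp1, Sfrp2, Dkk3, Apcdd1, Nkd1, Znrf3, Cdx1 and Lef1. Dkk1, Dkk4, Rnf43 and Sp5 were above the floor on no array.

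**Figure D1:**
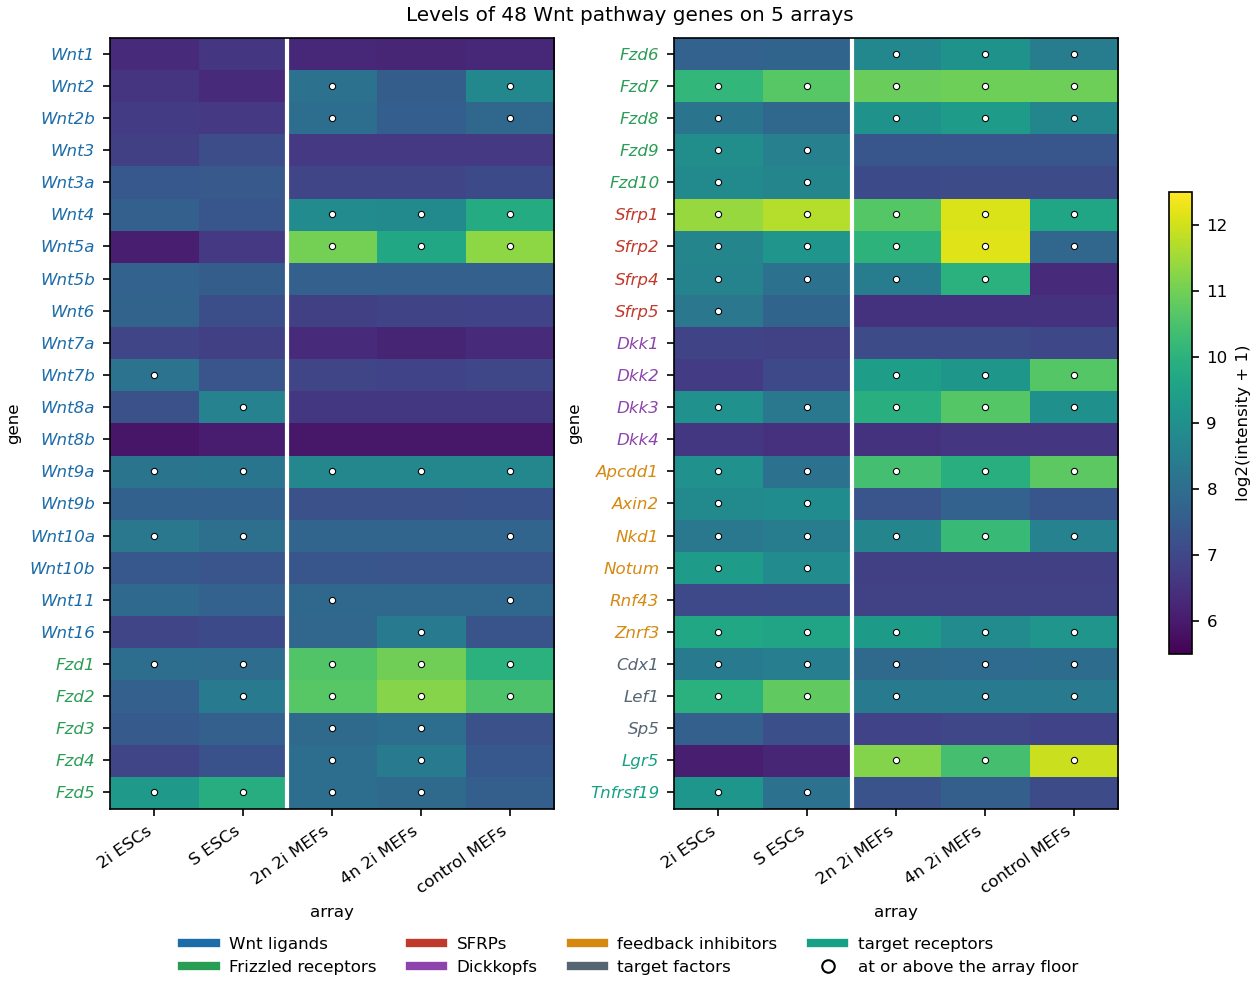
Levels of the 48 Wnt genes on the 5 arrays as log2(intensity + 1), with colour for the level, gene names coloured by role and a white dot where the value reached the array's floor. Wnt5a and Lgr5 are bright on the MEF arrays and under the floor on the ESC arrays, Notum and Axin2 show the reverse, and Sfrp2 and Sfrp4 differ most within the MEFs.

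ESCs and MEFs differed in the family members they carried. Of 35 Wnt genes that reached the floor on at least 1 array, 8 were higher in ESCs and 11 lower (limma, adjusted p under 0.05 and at least 2-fold), where 16.6% of all 11855 genes tested were higher and 16.2% lower. The 8 were the receptors Fzd5, Fzd9 and Fzd10, the antagonist Sfrp5, and the targets Axin2, Notum, Lef1 and Tnfrsf19. The 11 were the ligands Wnt2, Wnt2b, Wnt4 and Wnt5a, the receptors Fzd1, Fzd2, Fzd6 and Fzd8, the antagonist Dkk2, and the targets Apcdd1 and Lgr5. In bulk samples, fewer cells of a type and less RNA per cell cannot be told apart.

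Among ligands, Wnt5a, the main ligand of the beta-catenin-independent branch, had 66.9 and 101 intensity units on the 2i and S ESC arrays, and 2113, 809 and 2550 on the 2n, 4n and control MEF arrays. The log2 difference was -4.30 ± 0.57 (SE), with an adjusted p of 0.00434 in limma. Wnt4, a ligand of kidney and gonad development, had 198 and 164 units in ESCs and 467, 448 and 903 in MEFs, a log2 difference of -1.66 (adjusted p = 0.0173 in limma). Wnt2 had 93.9 and 78.9 units in ESCs and 277, 188 and 437 in MEFs (-1.71, adjusted p = 0.019 in limma). All 4 of these ligands lay under the floor on both ESC arrays, and Wnt2b, with 104 and 99.9 units there, reached only 262, 191 and 228 in the MEFs (-1.13, adjusted p = 0.00493 in limma). The call for Wnt5a was lost without the 2i ESC array (adjusted p = 0.0623 in limma) and that for Wnt2b without the S ESC array (adjusted p = 0.056 in limma). Those for Wnt4 (adjusted p = 0.112 and 0.148 in limma) and Wnt2 (0.121 and 0.155) were lost without the 2i or the S ESC array, and that for Wnt2 also without the 2n array (0.0562). No ligand passed the threshold in the other direction. Wnt8a had a log2 difference of 1.29 and an adjusted p of 0.0573 in limma, with ESC values of 149 and 391 units that lay far apart. Wnt7b (0.81, adjusted p = 0.0505 in limma) and Wnt10a (0.41, adjusted p = 0.0227 in limma) were under 2-fold.

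Frizzled receptors bind Wnt proteins at the cell surface. Of the 10, 3 were higher in ESCs, 4 lower and 3 not past the threshold. Of all genes tested, 16.6% were higher and 16.2% lower. Fzd1 and Fzd2 were lower in ESCs by log2 differences of -2.50 (adjusted p = 0.00401 in limma) and -2.81 (adjusted p = 0.00295 in limma). Fzd1 had 262 and 255 units on the ESC arrays and 1546, 2036 and 997 on the 2n, 4n and control MEF arrays, and Fzd2 had 198 and 333 against 1644, 2413 and 1487. Fzd6, a receptor linked to planar polarity, had 206 and 215 units in ESCs and 433, 542 and 348 in MEFs (-1.04), and Fzd8 291 and 227 against 544, 666 and 419 (-1.05), so both differed by little more than 2-fold. Without the 2i or the S ESC array the calls for Fzd1 (adjusted p = 0.0551 and 0.0573 in limma), Fzd6 (0.113 and 0.105) and Fzd8 (0.0877 and 0.157) were lost, the call for Fzd8 also without the 2n array (0.0655), and without the 4n array Fzd6 (-0.88) and Fzd8 (-0.89) differed by under 2-fold. The call for Fzd2 was kept without any 1 array. In the other direction, Fzd5 had 611 and 931 units in ESCs against 259, 241 and 194 in MEFs, a log2 difference of 1.71 (adjusted p = 0.00484 in limma). Fzd10 (459 and 409 units in ESCs, 133 to 139 in MEFs, 1.65) and Fzd9 (495 and 372 units in ESCs, 163 on every MEF array, 1.39) were under the floor on every MEF array. Fzd7 was bright on every array, with 1130 and 1643 units in ESCs and 1904 to 1995 in MEFs, and did not pass the threshold (-0.53, adjusted p = 0.0638 in limma).

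Of 9 targets tested, 4 were higher in ESCs and 2 lower, where 16.6% of all genes tested were higher and 16.2% lower. Notum, a secreted enzyme that removes the lipid of Wnt proteins, had 656 and 469 units on the 2i and S ESC arrays and 113 on every MEF array, a log2 difference of 2.29 with an adjusted p of 0.000908 in limma. Axin2, a scaffold of the destruction complex and a standard readout of beta-catenin activity, had 448 and 481 units in ESCs and 163, 208 and 165 in the 2n, 4n and control MEFs (1.38 ± 0.15 (SE), adjusted p = 0.00229 in limma). The DNA-binding partner Lef1 had 996 and 1765 units in ESCs and 333 to 337 in MEFs (1.98, adjusted p = 0.00422 in limma). The cell types did not overlap for these genes, but neither did they for genes under the floor throughout, such as Wnt1 and Sp5. Deposited MEF values were identical on 3 arrays for Notum and on 2 for Lef1. Lgr5, a receptor for R-spondins and a stem cell marker of the gut, was the opposite case, at 67.3 and 74.9 units in ESCs and 2374, 1395 and 3917 in MEFs (-5.03 ± 0.46 (SE), adjusted p = 0.00161 in limma). Apcdd1, a membrane inhibitor of Wnt signalling, had 527 and 277 units in ESCs and 1362, 969 and 1706 in MEFs (-1.77, adjusted p = 0.017 in limma), and its call was lost without the S ESC array (adjusted p = 0.114 in limma) or the 2n array (0.0548). Tnfrsf19, a TNF receptor family member induced by beta-catenin, had 578 and 274 units in ESCs and 156, 194 and 136 in MEFs (1.31, adjusted p = 0.037 in limma), and its call was lost without the 2i ESC, 2n, 4n or control array (adjusted p = 0.124, 0.0961, 0.0511 and 0.0911 in limma). Znrf3, which removes Frizzled from the cell surface, was above the floor everywhere and differed by less than 2-fold (0.51, adjusted p = 0.0472 in limma).

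**Figure D2:**
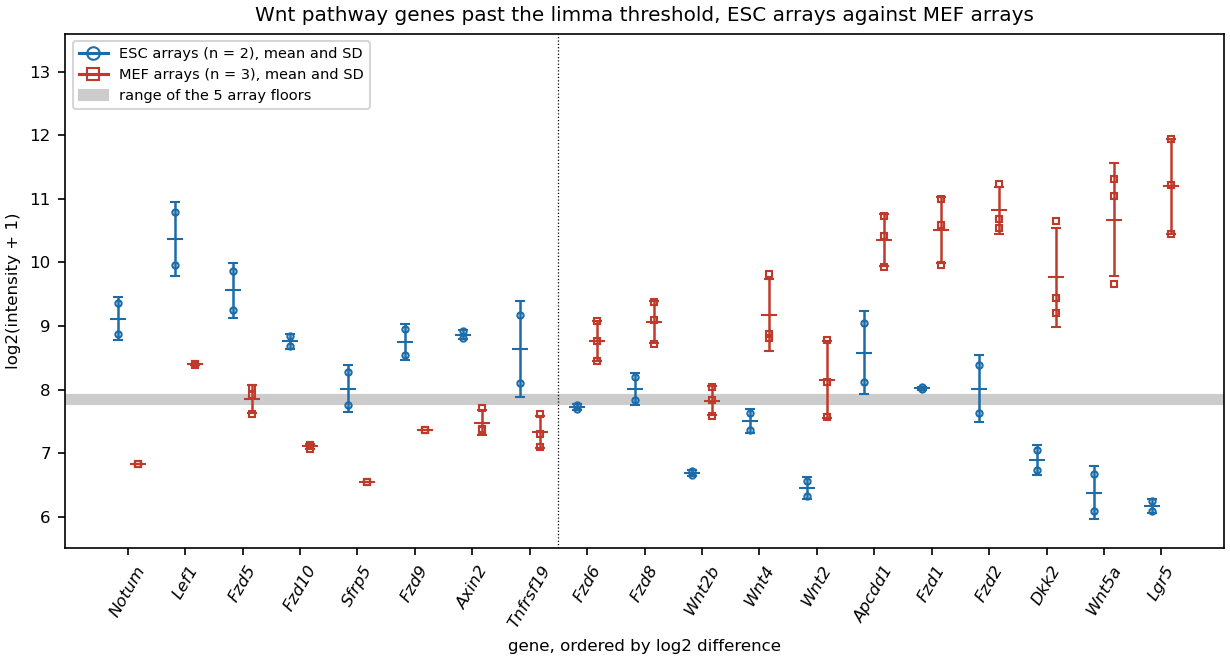
Log2(intensity + 1) of the 19 Wnt genes that passed the limma threshold between ESC arrays (circles, n = 2) and MEF arrays (squares, n = 3), with the mean and SD of each and the range of the 5 array floors as a grey band. Wnt5a and Lgr5 have the largest differences, -4.30 and -5.03, and Notum, Sfrp5 and Fzd9 have an SD of 0 in MEFs because their deposited values are identical there.

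Among secreted antagonists, Dkk2 had 105 and 132 units on the 2i and S ESC arrays and 692, 592 and 1611 on the 2n, 4n and control MEF arrays (-2.88, adjusted p = 0.00855 in limma), a call lost without the 2i or the S ESC array (adjusted p = 0.0958 and 0.0808 in limma). Sfrp5 had 309 and 215 units in ESCs and 91.9 on every MEF array (1.48, adjusted p = 0.00312 in limma), and it reached the floor on the 2i ESC array alone, so without that array it was not tested. The other Sfrp genes were above the floor on both ESC arrays. Sfrp1 had 2763 and 3345 units in ESCs, Sfrp2 414 and 564, and Sfrp4 392 and 283. These last 3 did not pass the threshold (adjusted p = 0.419, 0.521 and 0.927 in limma), and their SDs between MEF arrays were 1.25, 2.18 and 1.80 on the log2 scale. The spread in this comparison is that between conditions of a cell type, and nothing says that samples came from separate cultures or animals. Only 3 of the 8 higher calls (Fzd5, Axin2 and Tnfrsf19) remained among genes without identical MEF values, while all 11 lower calls did. The lower calls were 4 without the 2i ESC array and 3 without the S ESC array, so that count rests on having both.

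The surrounding pathway was measured by a list of 92 further genes, of which 91 had a probe set. Among 74 tested, 16 were higher in ESCs and 18 lower, where 16.6% of all genes tested were higher and 16.2% lower. The shared core was present in both cell types. Beta-catenin itself (Ctnnb1) had 7105 and 6076 units in ESCs and 5345 to 6745 in MEFs and did not pass the threshold (0.14, adjusted p = 0.433 in limma), and of the 14 tested genes of the Dishevelled and destruction complex list only Gsk3b passed, lower in ESCs (-1.25, adjusted p = 0.00317 in limma). Wls, the carrier that brings Wnt proteins to the cell surface, was lower in ESCs by 3.14 on the log2 scale (adjusted p = 0.00126 in limma). Among nuclear factors Tcf7l2 (-1.63) and the beta-catenin cofactor Bcl9l (-2.27) were lower and the corepressor Tle4 (2.23) higher, with adjusted p of 0.000788, 0.000374 and 0.000427 in limma. Tcf7l1, the repressor form that dominates in ESCs, had 2181 and 2324 units in ESCs and 1765 to 1822 in MEFs (0.34, adjusted p = 0.0243 in limma, under 2-fold). The planar polarity genes Celsr1 (2.18), Vangl1 (1.03) and Vangl2 (1.17), of a branch that orients cells within a sheet, were higher in ESCs and Prickle1 (-1.24) lower.

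Few Wnt genes, like few genes of any kind, differed by 2-fold between 2i ESCs and S ESCs. Of 24 that passed the floor, 1 exceeded 2-fold toward the 2i array, Tnfrsf19 (2.78% of all genes did), and 1 toward the S array, Wnt8a (2.54% of all genes), while 22 lay within 2-fold, and with 1 array a group nothing could be tested. Tnfrsf19 had 578 units on the 2i array and 274 on the S array (2.10-fold). Wnt8a, a ligand of the early primitive streak, had 149 units on the 2i array, under the floor, and 391 on the S array (2.61-fold).

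The 11 target genes had no common direction between the ESC arrays. By any amount 5 were higher on the 2i array and 6 lower, and their median log2 difference was -0.01, where that of all genes was 0.03. The most used readouts differed little or in opposite ways, with Axin2 at 448 against 481 units (-0.10), Nkd1 at 315 against 352 (-0.16) and Notum at 656 against 469 (0.49). Lef1 was lower on the 2i array, 996 against 1765 units (-0.83), and Apcdd1 higher, 527 against 277 (0.92), both within 2-fold. Sp5, a zinc finger factor that responds directly to beta-catenin, was at 200 and 148 units, under the floor on both arrays. Among receptors Fzd2 (-0.74), Fzd5 (-0.61) and Fzd7 (-0.54) were lower on the 2i array within 2-fold, and among ligands Wnt7b was higher (0.81, 286 against 163 units).

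**Figure D3:**
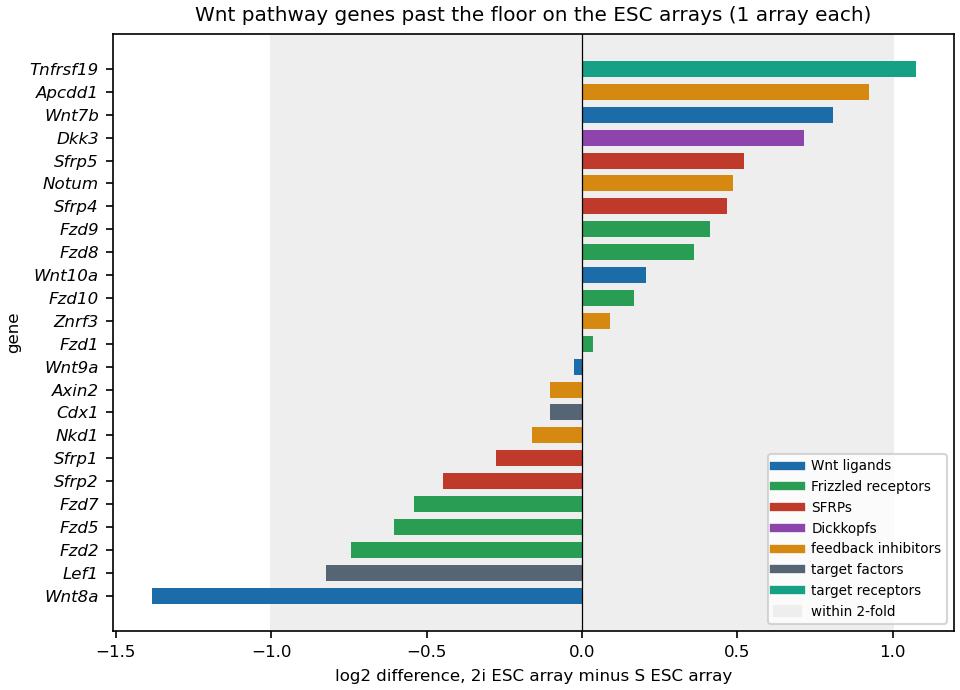
Log2 difference of the 24 Wnt genes past the floor, 2i ESC array minus S ESC array, with bars coloured by role and the range within 2-fold in grey. Tnfrsf19 (1.07) and Wnt8a (-1.38) alone leave the grey range, and targets lie on both sides of 0.

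Sp5 and Tnfrsf19 are shown here because, of the targets with a promoter window, only these held the core TCF/LEF motif. The motif was searched as CTTTGAT and CTTTGAA on both strands, in RefSeq windows (GRCm38.p6) from 250 bases before to 50 after a start site, which were given for 31 of the 48 Wnt genes. It stood in 5 of their 39 windows (12.8%) and in 8.65% of 32851 windows of all genes, the other 3 being windows of Dkk1, Wnt5b and Wnt11. A match is a description of the letters, and TCF/LEF sites of known targets, such as those of Axin2, can lie outside such a window. The 250 bases before the start site are printed 5′ to 3′ on the gene's strand with the motif in capitals, for Sp5 at chr2:70474673-70474922 (plus strand) and for Tnfrsf19 at chr14:61037988-61038237 (minus strand, with the motif on the opposite strand).
Sp5: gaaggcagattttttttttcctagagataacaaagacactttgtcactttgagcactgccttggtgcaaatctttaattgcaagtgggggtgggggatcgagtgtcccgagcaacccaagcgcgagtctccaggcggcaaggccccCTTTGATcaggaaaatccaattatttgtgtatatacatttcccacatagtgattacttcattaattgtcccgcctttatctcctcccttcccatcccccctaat
Tnfrsf19: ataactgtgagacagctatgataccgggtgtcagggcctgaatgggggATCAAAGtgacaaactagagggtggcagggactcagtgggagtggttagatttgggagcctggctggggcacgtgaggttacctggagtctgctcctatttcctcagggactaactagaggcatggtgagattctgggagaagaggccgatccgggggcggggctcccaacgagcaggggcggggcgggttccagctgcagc
The Sp5 motif begins 104 bases before the start site and the Tnfrsf19 motif 202 bases before it. Of this pair of genes, Sp5 was under the floor on all 5 arrays (200, 148, 120, 126 and 120 units on the 2i ESC, S ESC, 2n, 4n and control arrays) and Tnfrsf19 was above it only on the ESC arrays.

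Of 65 other listed genes of the pathway past the floor, 2 were at least 2-fold brighter on the 2i array (2.78% of all genes were). On the S array 6 were brighter (2.54% of all genes). Porcn, the enzyme that attaches the lipid to Wnt proteins, was 3.44-fold lower on the 2i array (647 against 2228 units), and the beta-catenin cofactor Bcl9 3.75-fold lower (397 against 1492). Of 10 further known beta-catenin targets past the floor 4 were lower on the 2i array (2.54% of all genes were) and none higher (2.78%). The lower ones were Myc (-1.54), the cyclin gene Ccnd2 (-2.16), Bmp4 (-2.09) and Jun (-1.42). Igfbp4, an extracellular Wnt antagonist, was 2.37-fold higher (743 against 313). The 7 genes known to be held down by Tcf7l1 in ESCs, among them Nanog, Esrrb and Tfcp2l1, all lay within 2-fold, with a median of 0.05. Beside these values, summed intensities of smooth muscle markers were 1022 on the 2i and 3143 on the S array. Those of fibroblast markers were 2632 and 3880, and of epithelial markers 8585 and 13089. Sums of mesothelial (1677 and 1374), cartilage and bone (1334 and 917), endothelial (2722 and 2347) and skeletal muscle markers (672 and 644) were higher on the 2i array. Of 6 mesothelial markers Msln alone was higher there (721 and 148 units), and 5 were lower. Of 5 cartilage and bone markers 4 were higher, Matn1 (594 and 213 units) by far the most. Endothelial markers were split, with 3 higher and 3 lower. The part of these cell types in the differences was not tested.

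Within the MEFs 3 of the 4 Sfrp genes differed between all arrays. Sfrp1, Sfrp2 and Sfrp4 were lowest on the control MEF array, intermediate on the 2n 2i MEF array and highest on the 4n 2i MEF array. Sfrp2 had 222, 1039 and 4539 intensity units in that order, Sfrp4 81.6, 344 and 996, and Sfrp1 777, 1608 and 4388. The Sfrp2 excess over control was 4.67-fold on the 2n array and 20.4-fold on the 4n array. Sfrp4 was under the floor on the control array, so its folds, 4.17 and 12.1, depend on background, and Sfrp2 there was just above the floor. Sfrp1 was 2.07-fold and 5.64-fold higher. Sfrp5, the remaining member, was at 91.9 units on all 3 MEF arrays. Frzb, a further Frizzled-related antagonist named apart from the Sfrp series, had the reverse order, at 538, 400 and 225 units on the control, 2n and 4n arrays.

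Of the Dickkopf genes, Dkk2 was lower on the 2i MEF arrays, at 1611 units on the control, 692 on the 2n and 592 on the 4n array (2.33-fold and 2.72-fold lower). Dkk3, a divergent family member, went the other way, at 520, 959 and 1625 units (1.84-fold and 3.12-fold higher). Dkk1 and Dkk4 stayed under the floor, between 91.7 and 138 units. The comparisons with control share 1 control array, so their likeness is partly built in, and each gene's values are given side by side for that reason.

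**Figure D4:**
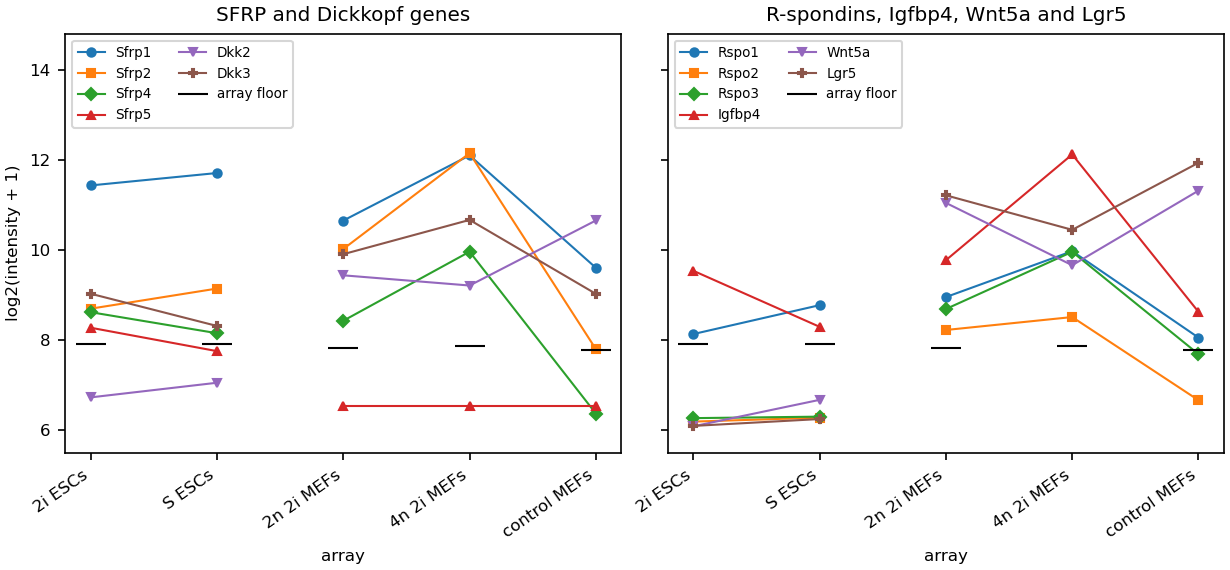
Log2(intensity + 1) of secreted Wnt modulators on the 5 arrays, with Sfrp and Dkk genes on the left and R-spondins, Igfbp4, Wnt5a and Lgr5 on the right, lines joining arrays of 1 cell type and a black dash at each array's floor. Sfrp1, Sfrp2, Sfrp4, Rspo1, Rspo3 and Igfbp4 peak on the 4n 2i MEF array, while Wnt5a and Lgr5 are lowest there among the MEFs.

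The promoter windows of Sfrp2, which had the largest MEF difference of the 48 genes, and of Dkk2, which went the opposite way, are shown for their CpG content, since the study's title concerns DNA methylation and methylation acts at this dinucleotide. Each is the 250 bases before the RefSeq start site (GRCm38.p6) on the plus strand, Sfrp2 at chr3:83766071-83766320 and Dkk2 at chr3:132085042-132085291, with CpG in capitals.
Sfrp2: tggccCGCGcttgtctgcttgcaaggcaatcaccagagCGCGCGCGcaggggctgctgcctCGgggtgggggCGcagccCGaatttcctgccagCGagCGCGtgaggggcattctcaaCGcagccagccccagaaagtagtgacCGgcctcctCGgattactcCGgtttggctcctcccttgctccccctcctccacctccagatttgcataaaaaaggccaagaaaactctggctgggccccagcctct
Dkk2: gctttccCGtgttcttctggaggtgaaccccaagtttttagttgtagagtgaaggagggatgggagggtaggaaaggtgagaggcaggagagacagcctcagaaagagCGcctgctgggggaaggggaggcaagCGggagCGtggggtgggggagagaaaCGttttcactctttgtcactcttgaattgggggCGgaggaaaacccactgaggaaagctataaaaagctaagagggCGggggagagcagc
The Sfrp2 window holds 16 CpG and the Dkk2 window 7, where the median over all 32851 windows of this length is 6. Over the 300-base windows the Wnt genes had a median of 22 CpG, against 7 for all genes. Methylation was not measured on these arrays, so the count describes the sequence only.

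On the 2n 2i MEF array, 3 of 26 Wnt genes past the floor were at least 2-fold higher than on the control array (1.47% of all genes were), all 3 of them Sfrp genes, and 1 was lower (0.433% of all genes), Dkk2. On the 4n 2i MEF array, 7 of 27 were higher (5.23% of all genes) and 5 lower (3.42%). The higher ones were Sfrp1, Sfrp2, Sfrp4, Dkk3, Nkd1, Wnt16 and Fzd1, and the lower ones Wnt2, Wnt4, Wnt5a, Dkk2 and Lgr5. Between the 2i MEF arrays themselves, 4 of 26 were higher on the 4n array (3.33% of all genes), namely the same Sfrp genes and Nkd1, and Wnt5a was lower (2.36% of all genes). Over all 48 members the median log2 difference was 0.00 in each of these comparisons, as it was for all genes. These medians rest on identical deposited values, which put 14, 14 and 12 members at exactly 0. Of all 19938 genes, 8579, 7179 and 7046 were at exactly 0. Past the floor, the medians were 0.11, 0.00 and 0.05 for the members and 0.00, -0.01 and -0.04 for all genes.

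**Figure D5:**
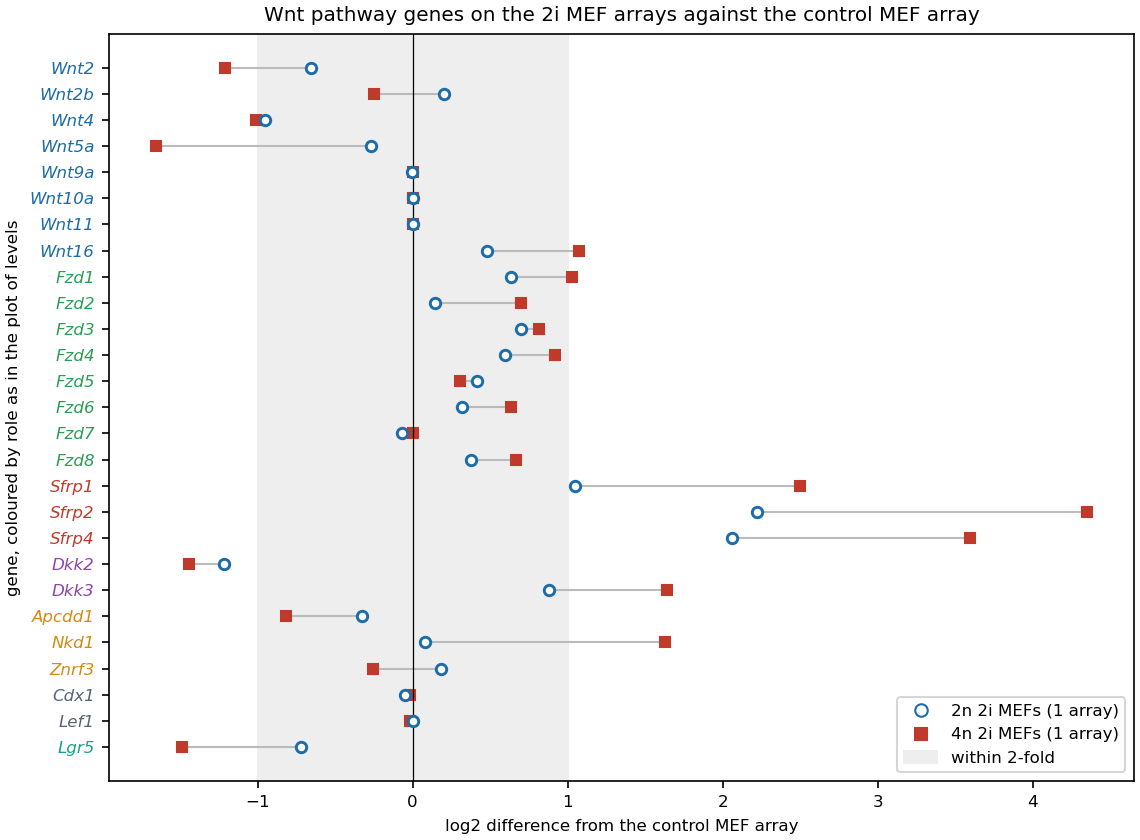
Log2 difference from the control MEF array of the 27 Wnt genes past the floor, for the 2n 2i MEF array (open circles) and the 4n 2i MEF array (squares), which share the control array, with the range within 2-fold in grey. Sfrp1, Sfrp2 and Sfrp4 lie farthest to the right on each array, and Wnt5a, Lgr5 and Dkk2 farthest to the left on the 4n array.

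Of 7 ligands past the floor 0 differed by 2-fold on the 2n array, where 1.47% of all genes were higher and 0.433% lower. Of 8 on the 4n array 3 were lower (3.42% of all genes were) and 1 higher (5.23%). Wnt5a had 2550 units on the control, 2113 on the 2n and 809 on the 4n array, so that only the 4n array stood apart (3.15-fold lower than control and 2.61-fold lower than 2n). Wnt4 had 903 units on the control and 467 and 448 on the 2n and 4n arrays (1.93-fold and 2.01-fold lower), at the edge of the threshold on each. A second Wnt4 probe set gave 789, 377 and 272 units in the same order. Wnt2 had 437, 277 and 188 units (1.58-fold and 2.31-fold lower). Wnt16, a ligand of bone and joint tissue, was the ligand past 2-fold in the other direction on the 4n array, at 159 units on the control, 222 on the 2n and 335 on the 4n array (124 and 133 in ESCs). Of the 10 Frizzled genes, 7 were higher than control by any amount on the 2n array and 7 on the 4n array. Their medians were 0.34 and 0.65. Of all 19938 genes, 5613 and 5462 were higher, but 8579 and 7179 were tied at exactly 0, so their medians of 0.00 rest on ties. Past the floor, the medians were 0.39 and 0.68 for Frizzled genes and 0.00 and -0.01 for all genes. Of 8 Frizzled genes past the floor in each comparison, Fzd1 alone passed 2-fold, on the 4n array. It had 997, 1546 and 2036 units on the control, 2n and 4n arrays.

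The targets did not move together in the MEFs. Lgr5 had 3917 units on the control, 2374 on the 2n and 1395 on the 4n array (1.65-fold and 2.81-fold lower). Nkd1, a Dishevelled-binding feedback inhibitor, had 385, 407 and 1192 units, so that the 4n array alone was high (3.10-fold). Lef1 was at 333 to 337 units on all 3 arrays, and Axin2, Notum and Tnfrsf19 were under the floor on each. Of the 11 targets, 6 were past the floor in each comparison with control. Of these 6, 0 passed 2-fold on the 2n array (1.47% of all genes were higher and 0.433% lower). On the 4n array 1 was higher (5.23% of all genes) and 1 lower (3.42%).

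R-spondins, secreted proteins that strengthen Wnt signalling through Lgr receptors, were ordered like the Sfrp genes on the MEF arrays. Rspo3 had 205 units on the control, 412 on the 2n and 994 on the 4n array (2.00-fold and 4.83-fold higher), Rspo1 265, 495 and 1004 (1.87-fold and 3.78-fold) and Rspo2 100.4, 298 and 364 (2.95-fold and 3.60-fold). Rspo2 and Rspo3 were under the floor on the control array, and Rspo4 was at 89.6 units on each. Igfbp4 had 394, 874 and 4452 units (2.21-fold and 11.3-fold higher). All 14 of the Dishevelled and destruction complex list past the floor were within 2-fold on both arrays. Of 11 further known targets past the floor, Bmp4 was 7.37-fold and 12.1-fold higher on the 2n and 4n arrays. On the 4n array 4 of these targets were lower (3.42% of all genes were), among them Fosl1 (6.73-fold), Cd44 (3.71-fold) and the cyclin gene Ccnd1 (2.77-fold).

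Some markers of other cell types also differed between the MEF arrays, not all in the same order. Of 6 mesothelial markers, 5 were at least 2-fold higher on the 2n array and 5 on the 4n array than on the control array, among them Upk3b (160, 1195 and 2387 units on the control, 2n and 4n arrays) and Wt1 (150, 404 and 681 units), and their summed intensity was 1642 units on the control, 5142 on the 2n and 8551 on the 4n array. The number above the floor was 2, 6 and 6 of 6. Of 8 macrophage markers, 5 were at least 2-fold higher on the 4n array and 0 on the 2n array. Summed fibroblast markers were 71328, 73359 and 83420 units, and of these 12 markers 0 differed by 2-fold on the 2n array, while on the 4n array Lum (7.56-fold) and Col3a1 (2.63-fold) were higher and S100a4 (5.58-fold) lower. Of 6 neural and glial markers, 2 were at least 2-fold higher on the 4n array, Fabp7 (1024, 1707 and 5041 units on the control, 2n and 4n arrays) and Sox10 (176, 196 and 629), and 1, Tubb3, was lower (2.28-fold). On the 2n array Nes was higher (3.24-fold) and peaked there, at 424, 1376 and 663 units. The endothelial marker Emcn also peaked on the 2n array (6.06-fold), at 58.9, 362 and 179 units. Of 6 smooth muscle and myofibroblast markers, Des alone passed 2-fold, at 96.3, 738 and 1339 units on the control, 2n and 4n arrays. The other 5 lay within 2-fold of control on both 2i MEF arrays. Of these, Acta2 had an identical deposited value (16818 units) on every MEF array. No measured marker had an intensity of 0. The part of these cell types in the Sfrp, R-spondin and Wnt5a differences was not tested.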

How the data were processed

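Total RNA was fragmented, biotinylated and put on 1 whole-transcript array for each group, per the labels' protocols. The authors deposited linear intensity values, 1 per probe set (28853 probe sets); background correction, summarisation and normalization are not given in the sources used here. Gene symbols came from the platform annotation: 21789 probe sets had 1 symbol and 1621 had several. For a gene with several probe sets the brightest over all arrays was used. All 48 members matched the RefSeq gene table by Entrez number with unchanged symbols.

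Values were analysed as log2(intensity + 1). A gene entered a pair of arrays when its brighter array reached the floor, and pairs were compared by a threshold of 2-fold with no test. ESC arrays (2) were compared with MEF arrays (3) in limma (lmFit and eBayes, 3 residual degrees of freedom) over all genes above the floor on any array, with Benjamini-Hochberg adjustment. This step was tested on simulated data. The members, the 10 pathway lists and the 10 marker lists were chosen with earlier results of these data known. Any member could be named, and from each pathway list up to 4 genes past the threshold together with secretion, beta-catenin and Tcf7l1 genes; Rspo4 and the marker genes named were added after their values were seen. Alternatives were other floors, pseudocounts, scalings, probe set rules and thresholds, and leaving out each array. The number of arrays limits the precision. Python 3.11.15, pandas 2.3.3, numpy 2.4.6, matplotlib 3.10.9, R 4.3.3 and limma 3.58.1 were used.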

Additional observations from a re-analysis of the deposited data

How the results depend on the processing

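None of the Wnt genes that passed a threshold changed direction under an alternative run for it, and no alternative was run for the single pathway and marker genes. In pairs of arrays, the counts of Wnt genes stayed within 1.5 times without a floor, after quantile normalization, with a pseudocount of 16 and after centring. With the floor at the 75th percentile, 0 genes remained beyond 2-fold in either direction on the ESC arrays, and 3 of 5 lower ones remained on the 4n 2i MEF array against control. With the mean of probe sets 2 genes were lower on the 2n 2i MEF array, Wnt4 joining Dkk2. At 3-fold, the ESC pair had 0 in either direction, the 2n array 0 lower, the 4n array 1 lower than control, and the 4n array 1 higher and 0 lower than the 2n array. Wnt4 and Wnt16, near the threshold on the 4n array, fell under it with a pseudocount of 16 (-0.99) and by quantile normalization (0.97), and Wnt4 also by centring, where it lay just short of 2-fold.

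Between ESCs and MEFs, the counts of higher and lower genes were 2 and 6 with the floor at the 75th percentile, and higher genes were 4 at 3-fold and 3 without genes identical on MEF arrays. Leaving out 1 array gave 7 to 9 higher and 3 to 14 lower genes. The share of member promoters with a motif was 10.3% for CTTTGAT alone (4 windows) and 2.56% for CTTTGAA alone (1 window). Each is below the share for both motifs by construction. Over all promoters the shares were 3.73% and 5.14%, so the members lay above for CTTTGAT and below for CTTTGAA. No paired analysis was possible because only 2 arrays share a title number, which leaves 0 residual degrees of freedom. Signal near background limits most ligands.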

Other observations

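Several Wnt ligand genes lie next to each other in the genome, with no other protein-coding gene between them in RefSeq order: Wnt6 and Wnt10a on chromosome 1, Wnt3a and Wnt9a and also Wnt9b and Wnt3 on chromosome 11, and Wnt10b and Wnt1 on chromosome 15. Neighbours did not share their pattern in full. Wnt9a was above the floor on all 5 arrays (293 and 298 units on the 2i and S ESC arrays, 426 to 427 on the MEF arrays), while its neighbour Wnt3a was above it on none (173 units on each ESC array). Wnt10a was above the floor on both ESC arrays (314 and 272 units) and on the control MEF array (219 units, the same deposited value as on the other MEF arrays), and its neighbour Wnt6 on none (210 and 144 units in ESCs). The pairs Wnt9b with Wnt3 and Wnt10b with Wnt1 were under the floor throughout.

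Of 13 tested genes of the list of other known beta-catenin targets, 3 were higher in ESCs, 6 lower and 4 within the threshold. Of all genes tested, 16.6% were higher and 16.2% lower. The median log2 difference was -2.73 for these targets and 0.06 for all genes tested. The 3 higher ones were Ascl2, Tbx3 and Fgf4 (log2 differences of 1.69, 2.21 and 5.37, adjusted p = 0.000897, 0.000643 and 0.000116 in limma). The lower ones included Ccn4, a Wnt-induced matricellular gene (-5.10, adjusted p = 0.000224 in limma), Ccnd2 (-4.69, adjusted p = 0.006 in limma), Cd44 (-3.86, adjusted p = 0.00755 in limma) and Jun (-2.75, adjusted p = 0.00904 in limma).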
